A study of Cladosporium europaeum with 50 samples.

Results

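Of 920 genes that the authors listed as changed in at least one comparison of Cladosporium europaeum mycelium, 215 carried no annotation of any kind, and these 215 unannotated genes are described here. A gene was taken as a member when it had a row in the full list of changed genes and no row in the annotated copy of that list, which holds the other 705 genes. No measured value entered the choice beyond the listing itself, so every member had already passed the authors' thresholds somewhere, and its listing is not a finding. The members made up 269 of the 1102 gene and comparison combinations.

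Strain F32 is a filamentous fungus from soil polluted in the past with PCB, the polychlorinated biphenyls, and it was cultured in a liquid mineral medium that held 5 g/L glucose. Polyadenylated RNA of whole mycelium was sequenced in 50 samples, 5 for each of 10 groups. At 24 h the groups were PCB52, PCB101, PCB153 and PCB180 at 6 mg/L each and a control without PCB, and the same 5 conditions were sampled at 96 h. The strain, the medium and the glucose were common to all groups, the labels name no other agent, and they do not state that replicates were grown apart, so the p-values may measure only technical spread. PCB are chlorinated aromatic compounds that dissolve poorly in water and persist in soil. The congeners differ in the number and place of their chlorine atoms, and PCB180, a heptachlorobiphenyl, has the chlorines of PCB153, a hexachlorobiphenyl, and a further one.

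A predicted gene is usually given a function by the likeness of its protein to a protein family or domain already described. Genes that match none are common in fungal genomes: some are found in few related species, some code for small secreted proteins that diverge quickly, and some are gene models that may not code for a protein at all. Being unannotated is thus a statement about databases and the search used, and no role is given to any member below. The members are named by contig and gene number, so that ptg000016l.447 is gene number 447 of contig ptg000016l.

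Each value below is the authors' own estimate. A log2 fold change sets a congener against the control sampled at that hour, its standard error (±) is on the same log2 scale, and the adjusted p is the authors' p-value corrected for the number of genes tested. The mean normalized count is the authors' average number of reads of a gene after correction for library size, with 1 value for a gene in every comparison. It is not divided by gene length and is not read here as a level to be ranked between genes. It serves as a rough guide to the amount of counting. Being the same in every comparison, it is not the count of 1 comparison alone, and samples in which a gene rose or fell enter it. Values of single samples were not used here, the depth of the libraries is unknown, and a gene outside a list is not shown to be unchanged. The words "rose" and "fell" are used of genes past both thresholds, an adjusted p under 0.05 together with a log2 fold change of 1 or more in size.

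At 96 h, 201 unannotated genes changed under PCB180 and 67 under PCB153, and in both comparisons most of them rose. Under PCB180, 165 rose and 36 fell, and under PCB153, 55 rose and 12 fell. Of all genes the authors tested, 7.26% were listed for PCB180 (4.59% rose and 2.67% fell) and 2.4% for PCB153 (1.82% rose and 0.579% fell). The number of unannotated genes among those tested is not known, so no share of the members of the genome can be set against these percentages. The unannotated genes were 24.5% of the genes listed for PCB180 and 25.7% of those listed for PCB153. Both comparisons use the same 96 h control samples. The values are relative to all RNA of the mycelium, so that less RNA per cell and fewer cells of a kind cannot be told apart.

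At 24 h a single unannotated gene was listed. Gene ptg000002l.531 rose under PCB153 by a log2 fold change of 1.37 ± 0.31, which is 2.59-fold, with 0.0184 as its adjusted p in the authors' deposited table. Its 95% interval ran from 0.76 to 1.98, its mean normalized count was 155, and it was 1 of 6 genes listed for that comparison, against 0.053% of the genes tested. It was not listed at 96 h for any congener.

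No unannotated gene was listed in the other comparisons that had rows. These lists were short: PCB52 at 24 h had 1 gene (0.00884% of those tested), PCB180 at 24 h had 2 (0.0177%), PCB52 at 96 h had 1 (0.00884%) and PCB101 at 96 h had 9 (0.0796%), all annotated. The direct comparison of PCB180 with PCB153 at 96 h had 1 gene (0.00884%), also annotated, as an L-galactonate dehydratase. The numbers at an unadjusted p under 0.05 cannot be given for these comparisons, since the tables used here hold only the genes the authors listed. The congener comparisons list genes past both thresholds, and the 1 gene of the direct comparison was listed at a log2 fold change of 0.86 ± 0.16 in the authors' deposited table. PCB101 at 24 h had no row in them.

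Rises made up a larger share of the unannotated than of the annotated genes, by a wider margin in the PCB180 list than in the PCB153 list. Under PCB180, 82.1% of the listed unannotated genes rose, against 57.1% of the listed annotated genes (354 rose and 266 fell) and 63.2% of all listed genes. For PCB153 the share was 82.1% of the unannotated genes, against 73.7% of the annotated genes (143 rose and 51 fell) and 75.9% of all listed genes. With the 25% of listed genes of lowest count left out, the PCB153 share was 71.4% of the unannotated genes. Seen from the other side, unannotated genes were 31.8% of the genes that rose under PCB180 and 11.9% of those that fell, and 27.8% and 19% under PCB153. Genes are not replicates of a condition, so no test was made of these shares.

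The members that rose did so by somewhat more than annotated genes. Under PCB180 the median log2 fold change of the rises was 1.76 in unannotated genes, 1.52 in annotated genes and 1.59 in all listed genes, and the middle 50% of the unannotated rises lay between 1.42 and 2.24. Under PCB153 the medians were 1.88, 1.62 and 1.68 in the same order of gene sets. The falls were smaller, with medians under PCB180 of -1.41 in unannotated genes and -1.25 in annotated genes, and under PCB153 of -1.23 and -1.19. Among the listed PCB180 genes that moved by at least 2 on the log2 scale, 67 were unannotated (61 rose and 6 fell). Another 77 were annotated (68 rose and 9 fell). Of the PCB180 genes that moved by at least 3, 8 were unannotated and 6 annotated. For PCB153, 22 unannotated genes and 30 annotated genes moved by at least 2, and in both sets all of them rose.

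The standard errors were larger too. In the PCB180 list their median was 0.488 for unannotated genes and 0.388 for annotated genes, and in the PCB153 list 0.467 and 0.376. The smallest absolute test score (the log2 fold change divided by its standard error) of any listed gene was 2.80 for PCB180, so a gene with the median unannotated standard error needed an absolute log2 fold change of 1.37 to be listed, against 1.09 for one with the median annotated standard error. For PCB153 the smallest score was 3.13, and the same sum gives 1.46 for unannotated and 1.18 for annotated genes. The standard error and not the fold threshold of 1 set the entry value for 84.6% of the unannotated genes in the PCB180 list (170 of 201) and 61.1% of the annotated ones. In the PCB153 list it did so for 89.6% (60 of 67) and 73.7%. The part of this entry value in the larger medians was not tested.

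**Figure D1:**
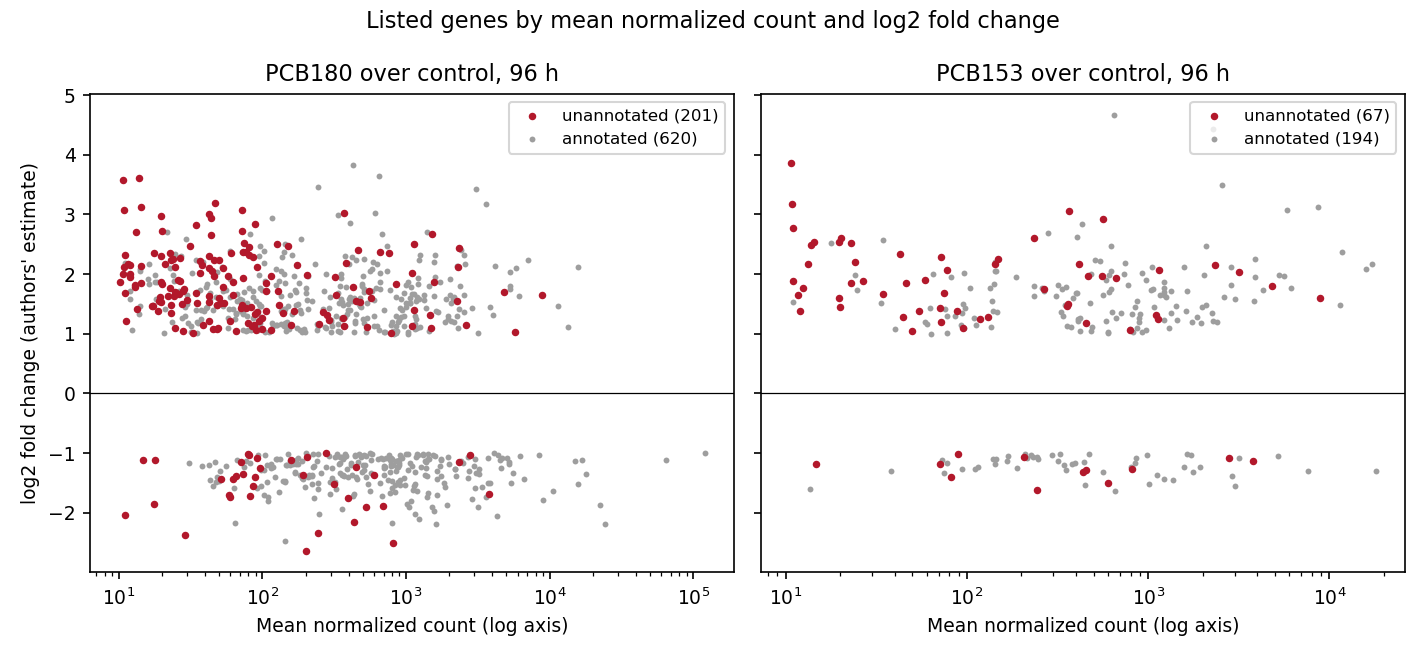
Log2 fold change at 96 h (vertical axis, authors' estimates) against mean normalized count (horizontal, log axis) for each listed gene, with PCB180 on the left and PCB153 on the right, unannotated genes in red and annotated genes in grey. The red points crowd at low counts above 1, with 111 of 201 in the PCB180 list at a mean normalized count of 77.5 or less, and the band between -1 and 1 is empty because the lists hold no such gene.

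The unannotated genes were counted on far fewer reads than the annotated genes. Their mean normalized counts ran from 10.2 to 8873 with a median of 71.8, and the middle 50% lay between 26.4 and 220. The annotated genes lay between 10.7 and 119992, at a median of 408, and the median of all listed genes was 302. A mean normalized count under 100 was found in 137 unannotated genes (63.7%), against 149 annotated genes (21.1%), and one under 20 in 37 (17.2%), against 19 (2.7%). At the other end, 19 unannotated genes (8.84%) and 193 annotated genes (27.4%) were over 1000. Unannotated genes that rose were counted less than those that fell. Those that rose under PCB180 had a median count of 53, against 94.1 for falls, and under PCB153 the medians were 72.2 for rises and 339 for falls. In annotated genes these medians were 277 and 691 under PCB180, and 605 and 381 under PCB153.

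The plot of the share of rises by counting level divides the 920 listed genes into 4 groups of equal size, with edges at 77.5, 302 and 896. The lowest group held 115 unannotated genes, which is 53.5% of them, and 115 annotated genes, which is 16.3%. From the lowest to the highest group, the share of listed unannotated genes that rose under PCB180 was 89.2%, 72.3%, 68% and 83.3%. In annotated genes the same series ran 84.6%, 59.7%, 51.2% and 44.9%. The shares of the 2 gene sets thus lay close together in the lowest group and furthest apart in the highest, where 15 of 18 unannotated genes and 83 of 185 annotated genes rose. Under PCB153 the unannotated shares were 93.8%, 66.7%, 71.4% and 77.8%, against 76.5%, 62.2%, 77.8% and 76.8% in annotated genes. The upper groups hold few unannotated genes, 9 in the highest for PCB153, and the part of counting depth in the excess of rises was not tested. With the lowest group left out, 66 unannotated genes rose under PCB180, or 73.3% of those left, and 25 under PCB153, or 71.4%. The annotated shares for PCB153 in the upper groups ran from 62.2% to 77.8%. A larger share of rises in unannotated genes is thus not shown for PCB153 outside the lowest group.

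**Figure D2:**
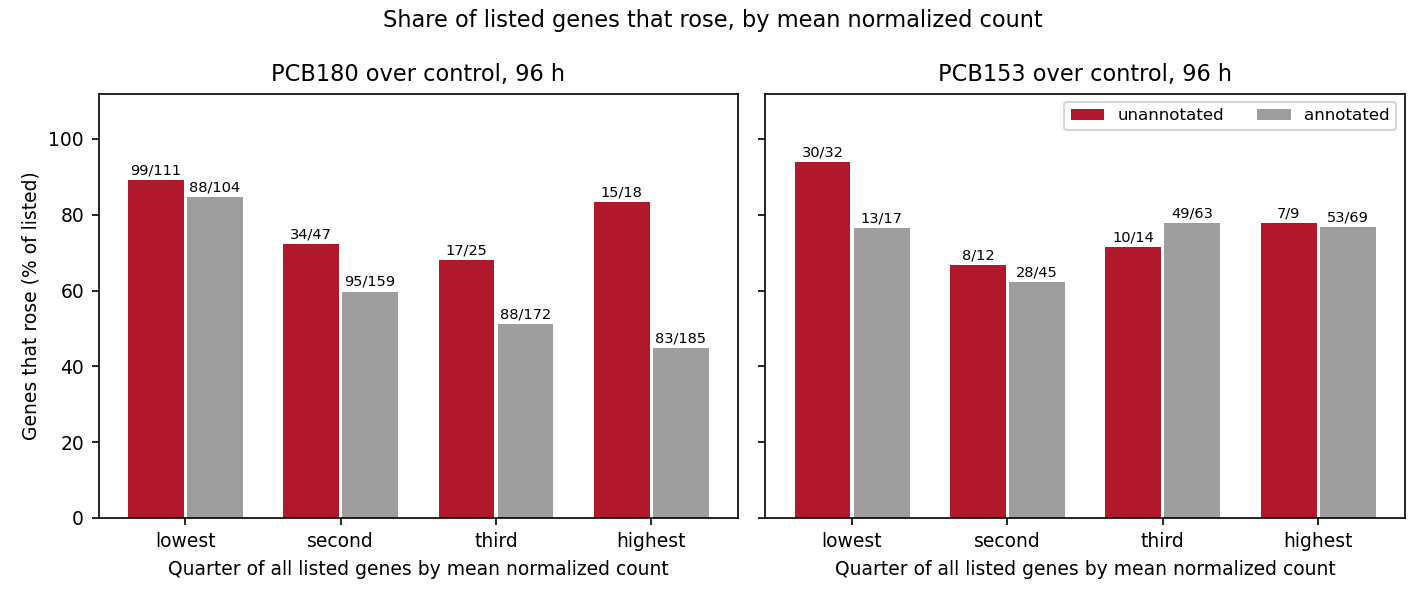
Share of listed genes that rose at 96 h (vertical axis, percent) in 4 groups of equal size by mean normalized count, for PCB180 (left) and PCB153 (right), with unannotated genes in red to the left of annotated genes in grey and the number that rose over the number listed above each bar. For PCB180 the grey bars step down from 84.6% to 44.9%, and the red bar of the highest group stands at 83.3%.

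The largest rises of unannotated genes under PCB180 came mostly from thinly counted genes. The largest was ptg000016l.447, which rose 12.3-fold, a log2 fold change of 3.62 ± 0.79 with an adjusted p of 0.000516 and a mean normalized count of 13.8 in the authors' deposited table. It was followed by ptg000021l.664 at 3.57 ± 0.97, ptg000015l.371 at 3.20 ± 0.76, ptg000011l.180 at 3.12 ± 0.75 and ptg000009l.779 at 3.08 ± 0.90 in the authors' deposited table. Genes ptg000008l.406 (3.07 ± 0.71), ptg000008l.396 (3.03 ± 0.71) and ptg000002l.644 (3.01 ± 0.66) completed the 8 largest rises in the authors' deposited table. Only ptg000008l.396 among these 8 had a mean normalized count over 100, at 368, and the others lay between 10.6 and 71.9. With standard errors from 0.66 to 0.97, the order within these 8 is not resolved.

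The rises with the smallest adjusted p were a little smaller in size. Gene ptg000018l.488 had the smallest adjusted p of an unannotated rise under PCB180, 2.61e-06, at a log2 fold change of 2.83 ± 0.49 and a mean normalized count of 34.6 in the authors' deposited table. Next were ptg000005l.720 at 2.06 ± 0.36 (adjusted p 5.71e-06, count 44.5) and ptg000007l.675 at 2.52 ± 0.46 (adjusted p 9.81e-06, count 74.3) in the authors' deposited table. All 3 stood in the lowest counting group. By adjusted p, ptg000018l.488 ranked 26 among all genes tested for PCB180 and ptg000005l.720 ranked 28.

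The falls under PCB180 were fewer and included the unannotated genes with the smallest adjusted p of all. Genes ptg000016l.461 and ptg000016l.669 lie on the same contig and shared an adjusted p of 4.65e-09, with log2 fold changes of -2.35 ± 0.33 and -2.15 ± 0.31 and mean normalized counts of 243 and 436 in the authors' deposited table. Gene ptg000018l.213 followed at -2.51 ± 0.39, with an adjusted p of 1.4e-07 and a count of 815 in the authors' deposited table. The largest fall by size was ptg000018l.480 at -2.63 ± 0.72, with an adjusted p of 0.00716 and a count of 200 in the authors' deposited table. Falls of similar size were found in ptg000035l.43 (-2.36 ± 0.56) and ptg000009l.207 (-2.04 ± 0.60), both with counts under 30, per the authors' deposited table. The remaining 2 of the 8 largest were ptg000008l.481 at -1.91 ± 0.35 and ptg000012l.159 at -1.89 ± 0.43, with counts of 532 and 695 in the authors' deposited table. In contrast to the rises, 6 of the 8 largest falls had a count of at least 200.

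Under PCB153 the largest rises were partly in other genes. Gene ptg000021l.664 rose most, by a log2 fold change of 3.87 ± 0.93 (adjusted p 0.00453), followed by ptg000008l.406 at 3.17 ± 0.68 and ptg000008l.396 at 3.05 ± 0.68 in the authors' deposited table. Gene ptg000005l.244, which was not listed for PCB180, rose by 2.92 ± 0.57 with a mean normalized count of 565 and had the smallest adjusted p of the unannotated rises, 0.000195, in the authors' deposited table. Genes ptg000010l.358 (2.77 ± 0.58), ptg000005l.396 (2.61 ± 0.66), ptg000002l.450 (2.60 ± 0.63) and ptg000011l.180 (2.54 ± 0.72) completed the 8 largest in the authors' deposited table. Of these, ptg000002l.450 was not listed for PCB180 either. Mean normalized counts were 10.6 for ptg000021l.664, 10.8 for ptg000008l.406, 11 for ptg000010l.358, 14.2 for ptg000011l.180 and 20.1 for ptg000005l.396. They were 234 for ptg000002l.450 and 368 for ptg000008l.396. Gene ptg000027l.202 rose less, by 1.75 ± 0.36, at an adjusted p of 0.000322 and a count of 265 in the authors' deposited table.

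No unannotated fall under PCB153 reached a log2 fold change of -2. The largest were ptg000016l.461 at -1.62 ± 0.31 (adjusted p 0.000177) and ptg000018l.375, whose estimate was -1.51 ± 0.43 in the authors' deposited table. Genes ptg000003l.181 (-1.41 ± 0.43), ptg000016l.669 (-1.32 ± 0.29), ptg000009l.145 (-1.29 ± 0.39) and ptg000018l.213 (-1.27 ± 0.37) came next, and ptg000002l.87 and ptg000006l.459 both stood at -1.19 ± 0.37, in the authors' deposited table. Gene ptg000018l.376, with a mean normalized count of 2790, moved little, by -1.09 ± 0.21, but its adjusted p of 0.000177 equalled the smallest among the unannotated falls in the authors' deposited table.

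Some unannotated genes were deeply counted, and 19 of the 215 had a mean normalized count over 1000. The highest mean normalized count, 8873, belonged to ptg000019l.45, which rose by a log2 fold change of 1.64 ± 0.44 under PCB180 and 1.61 ± 0.42 under PCB153 in the authors' deposited table. Gene ptg000003l.523, with a count of 5720, rose by 1.04 ± 0.32 under PCB180 alone, and ptg000006l.327, with 4845, by 1.70 ± 0.57 under PCB180 and 1.80 ± 0.54 under PCB153, in the authors' deposited table. The fourth, ptg000027l.475 with 3781, fell by 1.69 ± 0.31 under PCB180 (adjusted p 1.77e-05) and by 1.12 ± 0.30 under PCB153 (adjusted p 0.0123), both on the log2 scale, by the authors' deposited table. At the low end, ptg000003l.426 (10.2), ptg000021l.664 (10.6), ptg000018l.106 (10.7) and ptg000008l.406 (10.8) had the smallest counts. Of these, ptg000003l.426 rose by 1.86 ± 0.45 and ptg000018l.106 by 2.01 ± 0.68 under PCB180 in the authors' deposited table.

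Just inside the thresholds, the smallest unannotated rise under PCB180 was ptg000017l.407 at a log2 fold change of 1.01 ± 0.35 and the smallest fall was ptg000019l.15 at -1.0 ± 0.30, per the authors' deposited table. The largest adjusted p was that of ptg000011l.229, 0.0498, at 1.13 ± 0.40 in the authors' deposited table. For PCB153 the smallest rise was ptg000017l.102 at 1.04 ± 0.30 and the smallest fall ptg000015l.424 at -1.02 ± 0.30, and the largest adjusted p, 0.0498, was that of ptg000005l.576 at -1.07 ± 0.34, by the authors' deposited table. Genes just outside the thresholds are not in the tables used here.

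For the comparison of the 2 congeners at the same dose and hour, 54 unannotated genes had an estimate for each. Another 147 were listed for PCB180 and not for PCB153, 13 for PCB153 and not for PCB180, and 1 at 24 h alone, which accounts for all 215. The 54 were 26.9% of the unannotated genes listed for PCB180 and 80.6% of those listed for PCB153. Among all listed genes, annotated ones included, 171 were listed for both, of 821 for PCB180 and 261 for PCB153. The 13 listed for PCB153 and not for PCB180 all rose, with log2 fold changes from 1.25 to 2.92 and a median of 2.04. Most genes of the whole PCB153 list rose too, 198 of 261 (75.9%), so these rises are not shown to be particular to unannotated genes. Because both comparisons use the same control samples, a gene listed in both is not 2 independent observations. The values of the 54 are shown side by side in the plot of both congeners, where 42 lie above 0 and 12 below 0 for each congener.

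**Figure D3:**
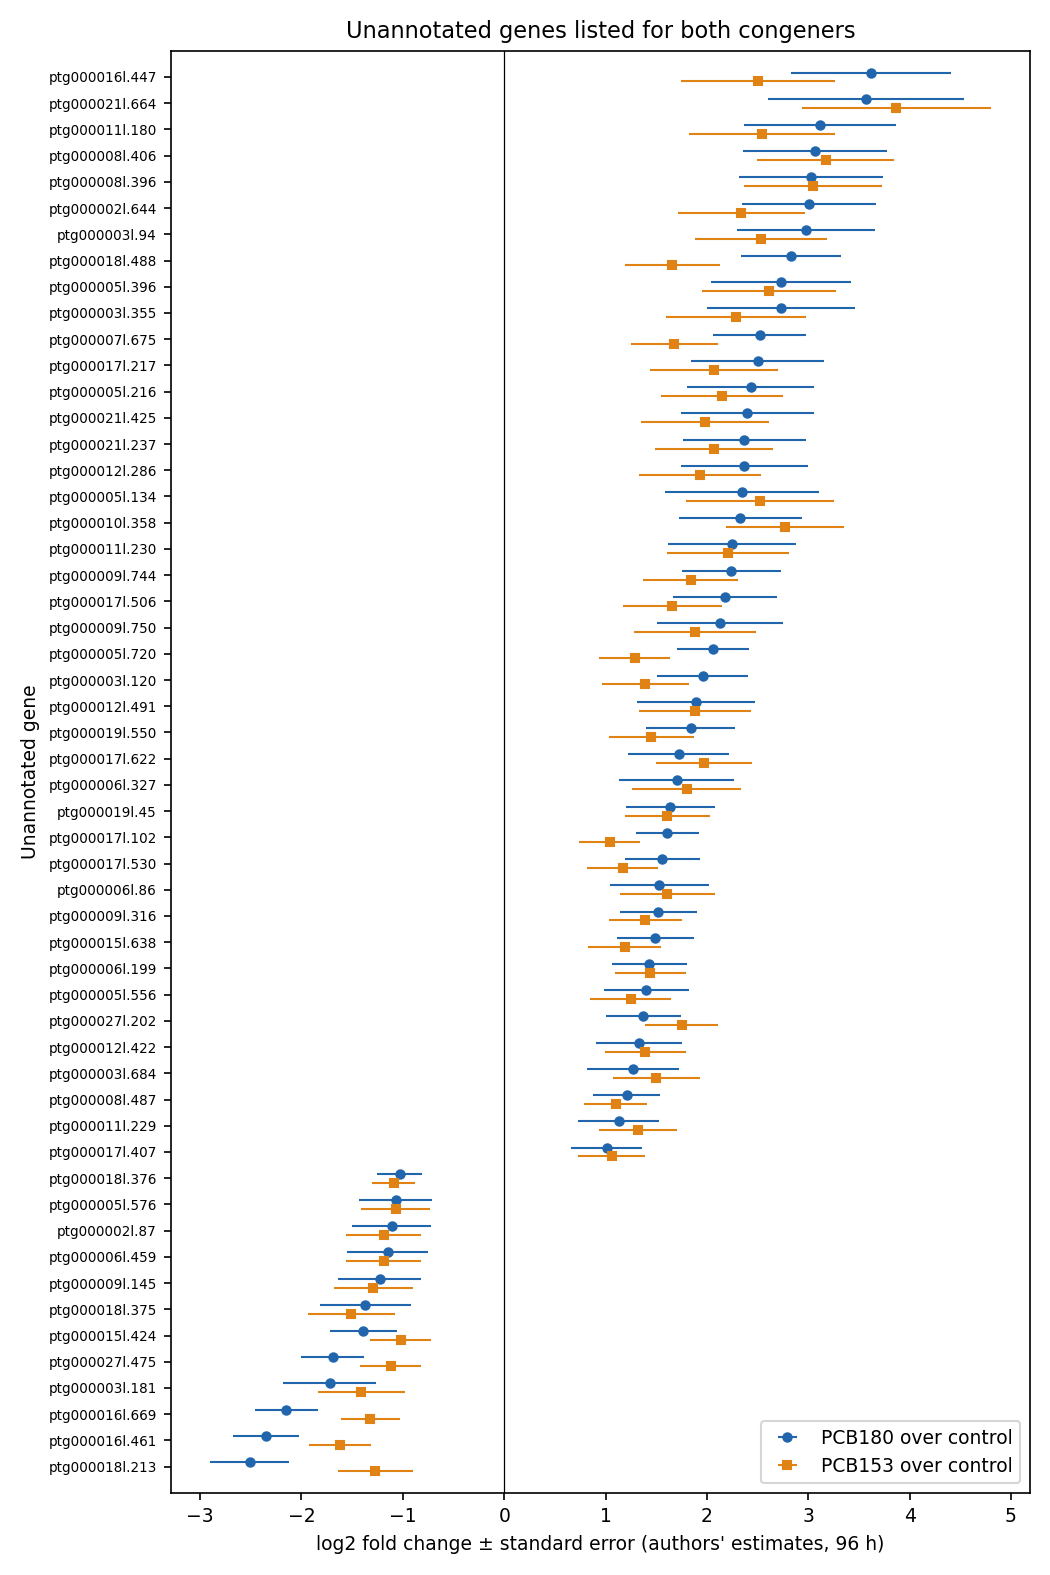
Log2 fold change over the 96 h control (horizontal axis) of the 54 unannotated genes listed for both congeners, 1 gene to a line, with PCB180 as blue circles above PCB153 as orange squares and bars of 1 standard error (authors' estimates). Most pairs of bars overlap, and the pairs furthest apart are ptg000018l.213 at the bottom and ptg000018l.488 near the top.

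None of the 54 unannotated genes differed between PCB180 and PCB153 past an adjusted p of 0.05. The difference of the 2 log2 fold changes, PCB180 minus PCB153, was put to a two-sided normal test that took a correlation of 0.5 between estimates sharing a control, with Benjamini-Hochberg adjustment over all 171 genes listed for both congeners. It called 0% of the 171 genes, annotated ones included. All 171 had passed the thresholds for both congeners, by the same estimates that the test uses. A gene with a strong difference is less likely to enter such a set, so this result does not show that the congeners act alike. The median difference was 0.07 in the unannotated genes, -0.02 in the annotated genes and 0.01 in all 171, with a median standard error of 0.44 in the unannotated genes. The differences ran from -1.24 to 1.17, and 22 of 54 lay within 0.2 of 0. The 95% interval stayed between -1 and 1 for 14 of the 54, so for the others a difference as large as the listing threshold is not excluded.

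At an unadjusted p under 0.05 the test picked 5 of the 54 unannotated genes and 18 of all 171. The largest difference was that of ptg000018l.213, -1.24 with a 95% interval from -1.99 to -0.49 and an adjusted p of 0.146 by this normal test, the smallest of all. Gene ptg000016l.669 differed by -0.83 (-1.42 to -0.25) and ptg000016l.461 by -0.72 (-1.36 to -0.09), so the 3 falls with the smallest adjusted p under PCB180 all had a lower estimate there than under PCB153. Gene ptg000018l.488 differed by 1.17 (0.23 to 2.10) and ptg000005l.720 by 0.77 (0.07 to 1.47), and these were the 2 rises with the smallest adjusted p under PCB180. These 5 had partly been picked out by their PCB180 values, and their adjusted p by the normal test lay between 0.146 and 0.379. Had the correlation been 0.75 in place of 0.5, 5 of the 54 unannotated genes and 18 of all 171 would have been called.

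At the other extreme, several genes had nearly the same estimate under both congeners. The differences were 0.04 for ptg000019l.45 (95% interval -0.80 to 0.88), -0.02 for ptg000008l.396 (-1.38 to 1.34) and 0.05 for ptg000018l.376 (-0.37 to 0.48). The interval of ptg000018l.376 is narrow and that of ptg000008l.396 is wide, so these data bound the difference closely for ptg000018l.376 and loosely for ptg000008l.396. The test had no bearing on genes listed for 1 congener alone.

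The unannotated genes were spread over 18 of the 19 contigs with listed genes. Contig ptg000009l held the most, 20 of its 84 listed genes, followed by ptg000003l with 18 of 61 and ptg000017l with 18 of 58. Relative to the contig's highest listed gene number, ptg000011l was the richest, with 4.58 unannotated genes per 100 gene numbers. There, 12 of 31 listed genes (38.7%) were unannotated, a lower share than on the small contig ptg000035l (4 of 9, 44.4%). Of the 12 on ptg000011l, 8 rose and 1 fell for PCB180, and for PCB153 6 rose and none fell. Its annotated genes were split 11 up and 4 down for PCB180, and 6 up and 0 down for PCB153. At 7.25 per 100, these annotated genes lay within the range of the other contigs, 3.62 to 7.89. Contig ptg000016l had the lowest density of the 18, at 1.01, with 7 of 48 listed genes unannotated, yet it holds 2 of the 3 falls with the smallest adjusted p. On ptg000018l, 10 unannotated genes rose and 4 fell under PCB180, and 1 rose and 3 fell under PCB153, the one contig with more unannotated falls than rises for PCB153 besides ptg000016l with 1 rise and 2 falls. How many of each contig's genes are unannotated in all is not known.

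**Figure D4:**
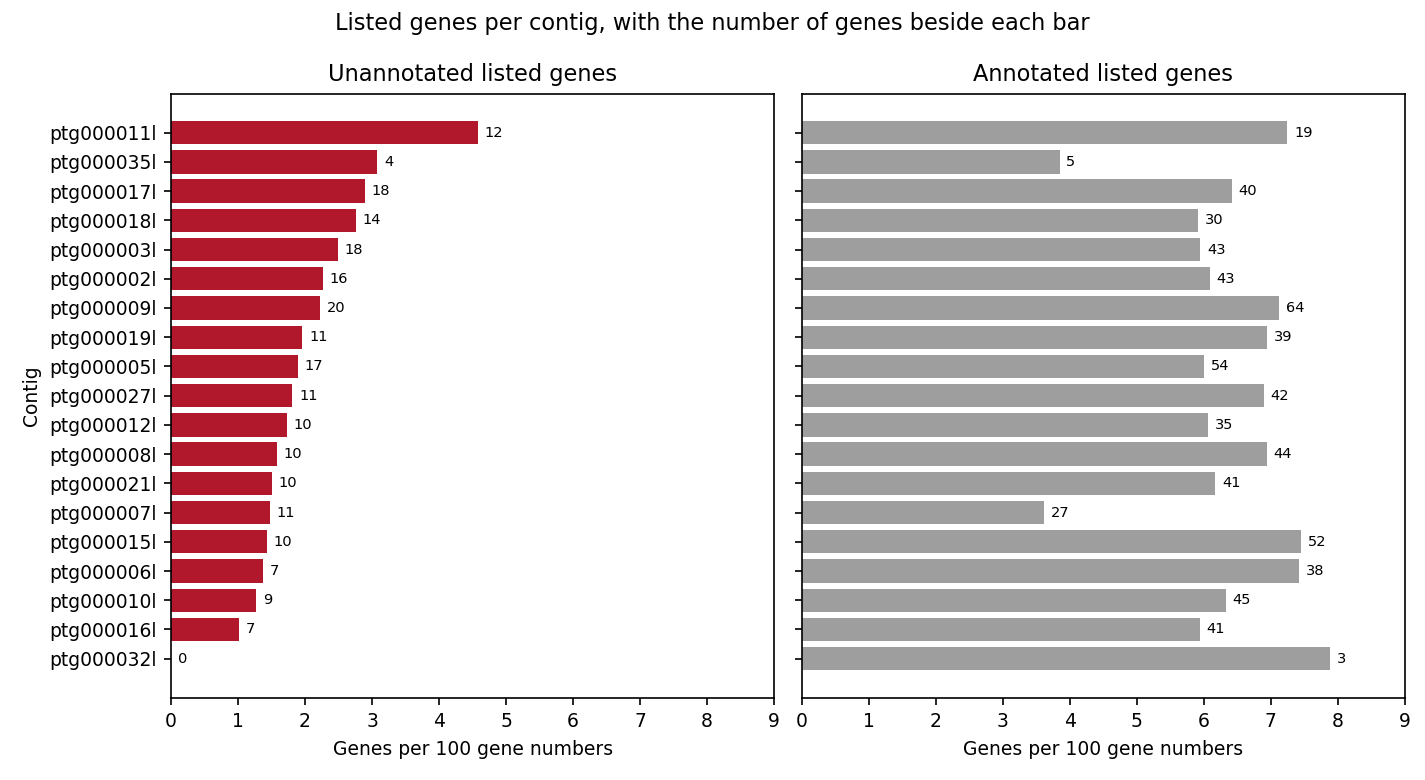
Listed genes per 100 gene numbers (horizontal axis) on each contig (rows), unannotated genes on the left and annotated genes on the right, with the number of genes beside each bar. Contig ptg000011l leads for unannotated genes at 4.58 and stands at 7.25 for annotated genes, and ptg000032l has no unannotated gene among 3 listed.

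Listed genes at the adjacent gene number were found for 54 of the 215 unannotated genes (25.1%), against 146 of the 705 annotated genes (20.7%). Within 2 gene numbers the share was 33.5% in both sets, and within 5 it was 63.7%, against 58.3%. These shares pool all comparisons, so a gene and its neighbour may be listed in different ones. With both genes listed for PCB180, an adjacent listed gene was found for 21.9% of the unannotated genes, against 16.1% of the annotated genes, and within 5 numbers for 59.2%, against 53.4%. For PCB153 the adjacent shares were 25.4% and 21.6% in the same order, but within 2 numbers the unannotated share was the lower one, 25.4%, against 27.3%, and so it was within 5, at 32.8%, against 36.1%. Gene numbers are taken here as the order along a contig, which the sources used here do not state. In fungi the genes of one pathway can stand side by side in a cluster, and adjacent genes can also overlap. Whether the authors counted reads by strand is not given in the sources used here, so reads of overlapping neighbours cannot be told apart.

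Adjacent pairs mostly moved in the same direction. Of 30 pairs of an unannotated and an annotated gene that were both listed for PCB180, 18 rose together, 4 fell together and 8 moved in opposite directions. All 8 pairs of 2 unannotated genes listed for PCB180 moved the same way, 6 up and 2 down. Pairs of 2 annotated genes were split 15 up, 11 down and 10 opposite among 36. For PCB153 the mixed pairs were 9 up together and 2 opposite, and the 4 pairs of 2 unannotated genes were 3 up and 1 down. The 17 pairs of 2 annotated genes listed for PCB153 were 14 up, 1 down and 2 opposite, so moving together was not particular to unannotated genes. These counts stand beside the overall share of rises, 82.1% of the unannotated and 57.1% of the annotated genes under PCB180. Under PCB153 that share was 82.1% and 73.7%, and the excess of the pairs over it was not tested for either congener.

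**Figure D5:**
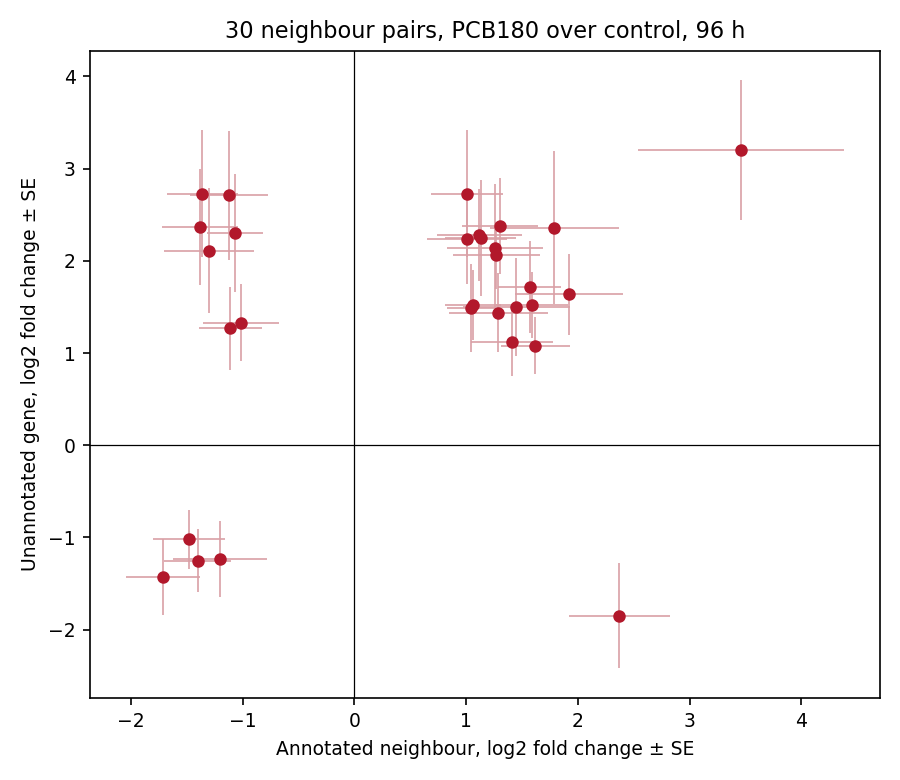
Log2 fold change under PCB180 at 96 h of the unannotated gene (vertical axis) against that of its annotated neighbour at the adjacent gene number (horizontal axis), with 1 standard error on each (authors' estimates), for 30 pairs. The upper right quadrant holds 18 pairs and the lower left 4, and of the 8 opposite pairs 7 have an unannotated rise beside an annotated fall.

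Runs of listed genes at consecutive numbers were no longer than 3, and 44 of the 95 runs held an unannotated gene. Of the 10 runs of 3, only 2 held as many as 2 unannotated genes. On contig ptg000011l, the unannotated ptg000011l.229 and ptg000011l.230 stood before ptg000011l.231, a glycosyl transferase family 17 protein, of an enzyme class that attaches sugars. Under PCB180 they rose by log2 fold changes of 1.13 ± 0.40, 2.25 ± 0.63 and 1.13 ± 0.32 in gene order, and under PCB153 by 1.32 ± 0.38, 2.21 ± 0.60 and 1.07 ± 0.30, in the authors' deposited table. On contig ptg000008l, the unannotated ptg000008l.406 and ptg000008l.407 stood before ptg000008l.408, a protein named only by the DUF1772 domain of unknown function. Under PCB153 all 3 rose, by 3.17 ± 0.68, 2.17 ± 0.63 and 2.25 ± 0.56, while for PCB180 only ptg000008l.406 was listed, in the authors' deposited table.

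Several of the named members had an annotated neighbour that moved with them. Next to ptg000015l.371, the gene ptg000015l.370, annotated as a secreted protein, rose under PCB180 by a log2 fold change of 3.46 ± 0.92 in the authors' deposited table. Beside ptg000019l.45, the most deeply counted member, ptg000019l.46 rose by 1.92 ± 0.48 under PCB180 and 1.98 ± 0.46 under PCB153 in the authors' deposited table. It is annotated as nitrogen permease regulator 3, known in yeast as part of a complex that restrains growth signalling through TORC1 when nitrogen is short. The F-box protein ptg000002l.449, of a family that recruits targets for ubiquitination, rose by 3.13 ± 0.65 under PCB153 next to ptg000002l.450 in the authors' deposited table. Next to ptg000005l.720, the dynactin subunit 5 gene ptg000005l.721, whose product belongs to a complex that works with the motor dynein, rose by 1.27 ± 0.39 under PCB180 in the authors' deposited table. The ER transporter domain gene ptg000008l.397 rose by 2.0 ± 0.56 under PCB153 beside ptg000008l.396 in the authors' deposited table.

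Falling members had such neighbours too, and some named rising members stood next to a gene that fell. The arrestin-like gene ptg000009l.144 fell by 1.20 ± 0.42 on the log2 scale under PCB180 next to ptg000009l.145, itself at -1.23 ± 0.41, in the authors' deposited table. Genes ptg000018l.375 and ptg000018l.376, both unannotated, fell side by side under both congeners, by 1.37 ± 0.45 and 1.03 ± 0.22 on the log2 scale under PCB180 in the authors' deposited table. The unannotated ptg000012l.160 fell by 1.15 ± 0.41 on the log2 scale next to ptg000012l.159 under PCB180 in the authors' deposited table. Gene ptg000005l.396 lay between 2 annotated genes that moved in opposite directions. Its neighbour ptg000005l.395, annotated as HTPA synthase, an enzyme of the diaminopimelate route to lysine in bacteria and plants, rose by 1.01 ± 0.32 under PCB180 in the authors' deposited table. On the other side, the family 2 glycosyltransferase ptg000005l.397 fell by 1.36 ± 0.32 under PCB180 and by 1.30 ± 0.31 under PCB153 (log2 scale), while ptg000005l.396 rose by 2.73 ± 0.69 and 2.61 ± 0.66, in the authors' deposited table. The low-count member ptg000003l.426 stood next to a probable beta-glucosidase G gene that fell by 2.14 ± 0.45 on the log2 scale under PCB153 at 24 h in the authors' deposited table, another hour and congener than its own rise.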

How the data were processed

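Whole mycelium of strain F32 was measured by RNA-seq in 10 groups of 5 samples, with RNA extracted by TRIzol and polyA libraries, per the labels' protocols. The aligner, read counter, genome build, gene annotation and test program were not given in the sources used here. Tables of comparisons were deposited, and, per the file headers, each row holds a signal, the authors' mean normalized count, a log2 fold change with its standard error, a test score, and an unadjusted and an adjusted p-value. The deposited score is the quotient of log2 fold change and standard error in all 1102 rows. An annotated copy, rounded by the authors, has 887 rows for 833 gene and comparison combinations. Rows of a congener against control were those with an adjusted p under 0.05 together with a log2 fold change of 1 or more in size. No sequence or genome was used.

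Members and lists were chosen with earlier results of these data known. Members were found by gene identifier, and a gene with several annotation rows was counted once. Shares are of genes listed, and the number of genes tested, 11313 in each comparison with rows except 10874 for PCB153 at 96 h, is the whole number for which the ratios of unadjusted to adjusted p give whole ranks. Since no values per sample were used, no gene was tested anew except for the difference between congeners, a two-sided normal test with an assumed correlation of 0.5. The recovery of the number of genes and the difference test were checked on simulated data. The planted differences were of 3 on the log2 scale, larger than those observed, with a true correlation of 0.5. Smaller differences and other correlations were not checked in this way. The genes named are all unannotated genes at 24 h, the 8 largest rises and 8 largest falls and the 3 smallest adjusted p per direction for PCB153 and PCB180 at 96 h, the 4 highest and 4 lowest counts, members of runs of 3 with at least 2 unannotated genes, and the listed neighbours of all these. The 5 genes with an unadjusted p under 0.05, the genes of small difference and the genes just inside the thresholds were chosen after their values were seen. Alternatives were stricter thresholds, a filter on low counts, a wider definition of unannotated, other correlations and other neighbour distances. Python 3.11.15, numpy 2.4.6, pandas 2.3.3, scipy 1.17.1 and matplotlib 3.10.9 were used.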

Additional observations from a re-analysis of the deposited data

How the results depend on the processing

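Stricter listing cut the counts most. At an adjusted p under 0.01 and under 0.001, the unannotated genes that rose under PCB180 numbered 65 and 12 and those that fell 17 and 8, and for PCB153 15 and 4 rose and 3 and 2 fell. At a log2 fold change of 2 or more in size, 61 rose and 6 fell for PCB180, and 22 rose and 0 fell for PCB153. The 24 h gene was lost under each of these 3 settings (0 left). Without the lowest 25% of listed genes by count, 66 rose for PCB180 and 25 for PCB153, and the median count of the members became 273. The unannotated share of the PCB180 list was 21.4% at an adjusted p under 0.01, 46.5% at a log2 fold change of at least 2, 14.9% without the low counts and 28.1% with the 34 genes named only by a domain or protein of unknown function added, which made the median count 77.4. For PCB153 the share was 18.4%, 42.3% and 16.5% under the first 3 of these. The percent that rose was also taken, with these settings added after seeing the data. For PCB180 it was 60% at an adjusted p under 0.001, 91% at a log2 fold change of at least 2 and 73.3% without low counts. For PCB153 it was 66.7%, 100% and 71.4% in the same order. At a log2 fold change of at least 2, rises were also most of the annotated genes, 68 of 77 for PCB180 and 30 of 30 for PCB153. A correlation of 0, 0.25 or 0.53 (the last added after seeing the data) gave 0 genes that differ between congeners. One of 0.75 gave 5 of the 54 unannotated genes and 18 of all 171. The true correlation is not known. The fewer genes that pass follow from the stricter settings themselves. Counts of adjacent listed genes moved by less than 1.5 times. No paired analysis was possible because the deposited tables hold no values per sample, and for the same reason no replicate was left out in turn. The unknown depth limits the thinly counted members most.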

Other observations

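The standard error of the log2 fold change was larger for PCB180 than for PCB153 in all 54 unannotated genes listed for both, by a ratio between 1.036 and 1.077 with a median of 1.054. In the 13 of them with a mean normalized count over 500 the ratio lay between 1.054 and 1.059, and in all 171 genes listed for both it was above 1 as well. The labels give 5 samples to each group. If standard errors followed group sizes alone, 5 samples in every group would give a ratio of 1. Among sizes from 2 to 5, a ratio of 1.054 is given by 4 PCB180, 5 PCB153 and 4 control samples and also by 3, 4 and 2. For the ratio of the direct comparison to PCB180 these sizes give 0.949 and 0.837, and 0.947 was observed in its 1 listed gene. The number of samples in the authors' fits is not given in the sources used here, and this arithmetic was chosen after the values were seen. Neither group size nor the unknown depth of the libraries was tested as a source of the ratio.

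Some unannotated genes stood close together without being adjacent. On contig ptg000017l, ptg000017l.232, ptg000017l.235 and ptg000017l.238 span 7 gene numbers and were all listed for PCB180. Their log2 fold changes were -1.12 ± 0.25 for ptg000017l.232, 2.24 ± 0.65 for ptg000017l.235 and 1.55 ± 0.55 for ptg000017l.238 in the authors' deposited table, so close neighbours did not share a direction there. On contig ptg000010l, ptg000010l.346, ptg000010l.356 and ptg000010l.358 span 13 gene numbers, and they rose under PCB180 by 2.45 ± 0.57, 2.94 ± 0.60 and 2.33 ± 0.61 in the authors' deposited table. These groups were picked after their values were seen.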
